A study of Homo sapiens with 6 samples.

Results

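The genes described here encode the proteins of the mitochondrial ribosome. They were chosen by symbol alone: every row of the deposited tables whose symbol is MRPL or MRPS followed by a number, and at most 1 of the letters A, B and C, was taken, the row with the highest mean level stood for its symbol, and a gene was kept if it reached 1 RPKM in any library. RPKM scales a row's reads to a kilobase of its length and to 1000000 reads in the library. The rule took 120 rows under 76 symbols out of 23204 symbols, 47 of them MRPL and 29 of them MRPS, and all 76 passed the minimum level. By the place of the protein in the ribosome, 49 belong to the large subunit, 26 to the small subunit, and MRPS36 was placed in neither.

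Mitochondria carry their own ribosomes, which translate the few proteins encoded by mitochondrial DNA, all of them parts of the respiratory chain and the ATP synthase. The ribosomal RNAs come from the mitochondrial genome, whereas every protein of the particle is encoded in the nucleus, translated in the cytosol and imported. Some of these proteins descend from bacterial ribosomal proteins and others were added during the evolution of mitochondria. The large subunit forms peptide bonds and holds the exit tunnel, and the small subunit decodes the mRNA.

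The cells were HEK293T, a human embryonic kidney line that carries the SV40 large T antigen, and the perturbed gene was DDX3X, a DEAD-box RNA helicase that carries missense mutations in medulloblastoma. In the knockdown arm, cells received a control siRNA or an siRNA against DDX3X for 48 h, with no sorting described. In the plasmid arm, cells were transfected for 32 h with 5 µg of plasmid for GFP alone, for GFP-DDX3X WT, or for the mutants GFP-DDX3X T275M and GFP-DDX3X G302V, and GFP-positive cells were sorted. Every group holds 1 library, so no p-value was computed, and each difference below compares 2 libraries rather than 2 conditions. The cells of the plasmid arm kept their endogenous DDX3X, and a legend in the study names a different pair of mutants from the labels, which were followed here.

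Depth, recovered from the values, was 43720000 to 67520000 reads in 5 libraries and 180870000 in the DDX3X siRNA library. DDX3X itself followed the labels. It stood at 119 RPKM in GFP cells, 2894, 3279 and 1906 RPKM in the wild-type, T275M and G302V libraries, 107 RPKM in control siRNA and 31.3 RPKM after knockdown. The labels call the cells neuronal. Of 14 neuronal markers, 5 to 7 reached 1 RPKM in a library, and their summed level of 644 to 840 RPKM was mostly the neurofilament genes NEFM, at 514 to 683 RPKM, and NEFL, at 109 to 140 RPKM. RBFOX3 stayed at 0.277 to 0.702 RPKM and MAP2 at 0.0113 to 0.086 RPKM, while DCX and STMN2 were at or near 0. Of 8 markers of kidney epithelium and the line, 4 or 5 reached 1 RPKM, with a summed level of 295 RPKM in the DDX3X siRNA library and 334 to 354 RPKM elsewhere. None of 3 leukocyte markers and 1 of 4 fibroblast markers, COL1A1, reached 1 RPKM. The part of these markers in the results below was not tested.

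To describe how strongly the cells expressed the mitochondrial ribosome, the level of each gene was first compared across the libraries. The genes were well expressed throughout. Their median was 48.4 to 55.8 RPKM per library, against 10.5 to 11.4 RPKM for all genes at 1 RPKM or more, which is 4.37 to 5.31 times as high. At the lowest, a member still had 1056 reads in a library. The mean level over the 6 libraries ran from 14.4 RPKM for MRPL19 to 194.8 RPKM for MRPL51, a 13.6-fold range among proteins of a particle that holds most of them in single copy.

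MRPL51, a mitochondria-specific protein of the large subunit, had 215 RPKM in the GFP library, 213 in wild type, 183 in T275M, 181 in G302V, 196 in control siRNA and 180.3 in DDX3X siRNA. MRPS21, a homologue of a bacterial small subunit protein, stood at 219, 194, 189, 177, 190 and 175 RPKM in the same order. MRPL12, which forms the flexible stalk that recruits translation factors, stood at 224, 181, 166, 178, 206 and 184 RPKM. In all 3 of these genes the GFP library was the highest, and the lowest library was T275M or DDX3X siRNA.
MRPL20 and MRPS24 came next, with means of 161 and 144 RPKM. At the other end, MRPL19, a homologue of bacterial L19, had 14.9, 12.9, 13.3, 14.2, 14.8 and 16.1 RPKM. MRPL22, one of the proteins around the exit tunnel, had 16.9, 17.3, 15.7, 13.8, 16.8 and 13.2 RPKM. MRPL30, MRPS14 and MRPS36 had means of 19.9, 21.1 and 23.7 RPKM. The protein of MRPS36 is now counted as a component of the 2-oxoglutarate dehydrogenase complex rather than of the ribosome, and its gene was among the 5 lowest of the 76.

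**Figure D1:**
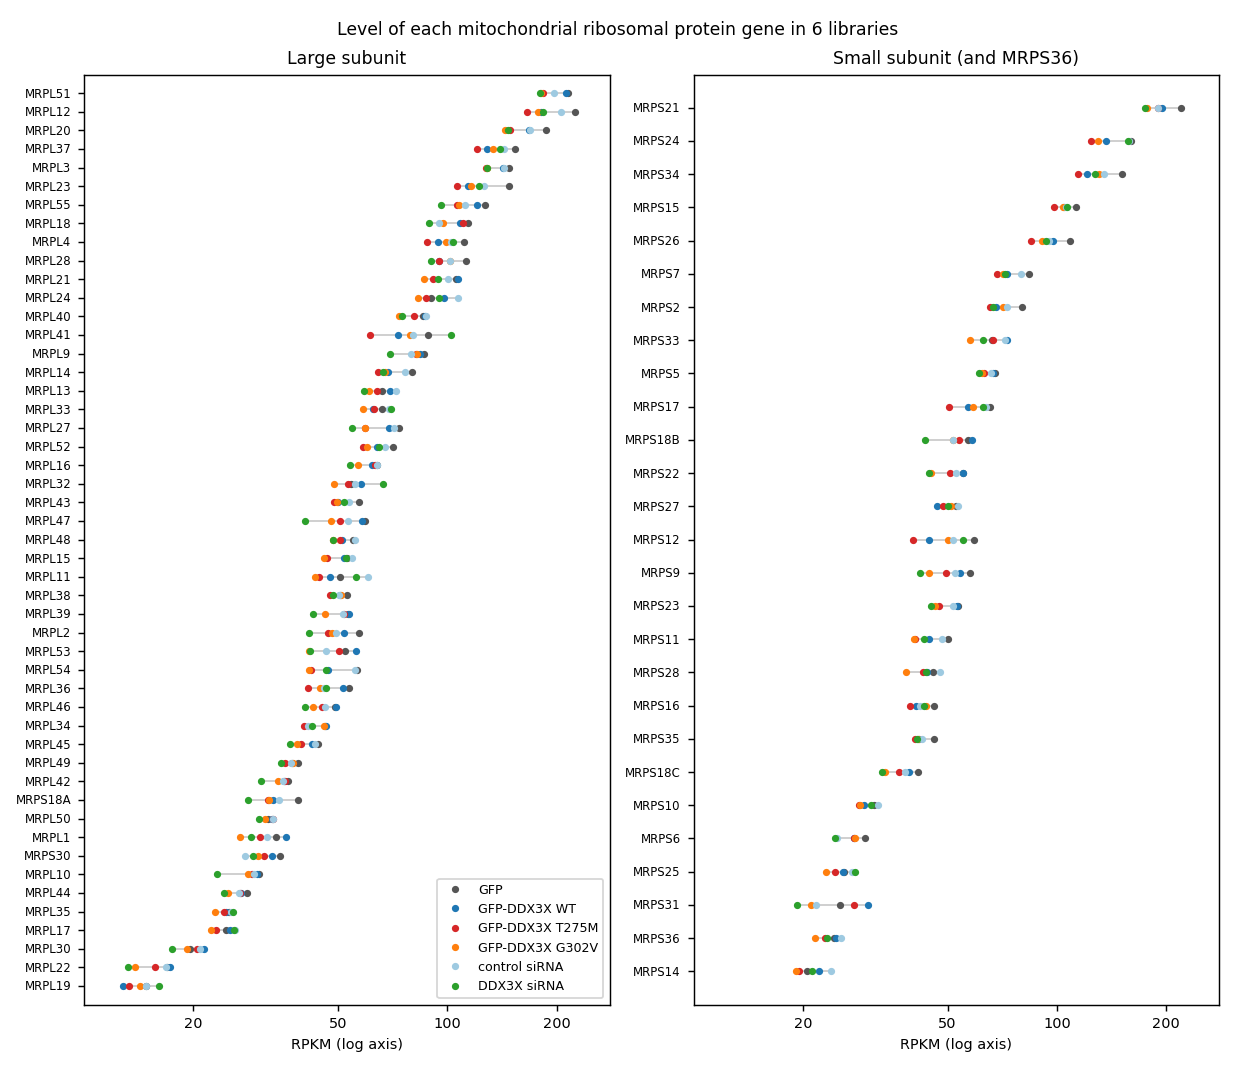
Level of the 76 genes in RPKM on a log axis, with 1 row per gene, genes sorted by their mean, and 1 point per library. The left panel holds the 49 genes of the large subunit and the right panel the 26 of the small subunit with MRPS36. Differences between genes span 13.6-fold, whereas the 6 points of a gene lie within 1.09-fold to 1.68-fold of each other.

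The spread over libraries was much narrower than the spread over genes. The highest library exceeded the lowest by a median of 1.24-fold, from 1.09-fold for MRPL50 to 1.68-fold for MRPL41, and the same median was 1.28-fold over 5235 genes of all kinds within the members' range of level. The summed level of all 76 genes was 5426 RPKM in the GFP library, 5018 in wild type, 4647 in T275M, 4662 in G302V, 5121 in control siRNA and 4734 in DDX3X siRNA. As a share of library reads this was 0.627% (95% Clopper-Pearson interval 0.625 to 0.629), 0.583% (0.581 to 0.585), 0.545% (0.543 to 0.547), 0.547% (0.545 to 0.550), 0.597% (0.595 to 0.599) and 0.552% (0.551 to 0.553) in that order. The reads carry no molecular identifiers, so every interval here covers counting error only. The GFP share was thus the highest, and the shares of wild type, both mutants and DDX3X siRNA all lay below those of both control libraries. By summed level the subunits moved together: summed RPKM of the large subunit was 1.96 to 2.03 times that of the small subunit in every library. The ratio of their median RPKM varied more, from 0.997 in wild type to 1.16 in DDX3X siRNA, with 1.07 in control siRNA. The sums take 1 row per gene. With all transcript rows added, the large subunit in GFP summed to 5795 rather than 3590 RPKM, and the ratio of the subunits was 2.41 to 2.55.

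Within the plasmid arm most genes were highest in GFP and lowest in one of the mutants. Among its 4 libraries, 57 of the 76 genes were highest in GFP, 18 in wild type, 1 in T275M and 0 in G302V. The lowest library was G302V for 43 genes, T275M for 30, wild type for 3 and GFP for 0. The full order varied: GFP, wild type, T275M, G302V from high to low was the most frequent, in 21 genes, and the same order with the mutants exchanged followed in 17. Each of these counts rests on the same single GFP library.

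The promoters of the family were read next, because these genes were lower together in several comparisons. RefSeq start sites on GRCh38.p14 were given for 68 of the 76 genes, with 84 windows of 250 bases before to 50 bases after a start. No entry was matched for MRPL2, MRPL10, MRPL13, MRPL15, MRPL21, MRPL23, MRPL35 and MRPS28. Windows were searched on both strands for the letters CCGGAAGT, bound by ETS factors such as GABPA, GCGCATGC, bound by NRF1, and AAGATGGC, bound by YY1. These factors are known regulators of nuclear genes for mitochondrial proteins. The letter strings do not contain one another, but the NRF1 string overlaps its own reverse complement.

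The YY1 letters stood in the windows of 21 of 68 genes, or 30.9%, against 3.52% of all 27305 symbols with a window and 6.57% of the 10174 symbols at 1 RPKM or more. The ETS letters stood in 12 genes, or 17.6%, against 4.95% and 10.2%. The NRF1 letters stood in 6 genes, or 8.82%, against 3.68% and 6.61%. At least 1 of the 3 stood in 30 genes, or 44.1%, against 11.2% and 21.1%. For comparison, the E-box CACGTG stood in 14.7% of the members against 12.9% of expressed symbols, and TATAAA in 5.88% against 8.19%. A match is a description of the letters and not a bound site. The nearest YY1 match lay in the first 50 transcribed bases in 16 of the 21 genes and on the strand of the gene in 17. The YY1 letters contain ATG, and whether such a match falls on the start codon of the protein was not tested.

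Below are 30-base windows on the strand of the gene with the matched letters in capitals. The first 4 hold the ETS letters and belong to genes at the low end of a comparison described further on. They are a selection from the 12 genes with these letters. MRPL18, another of the 12, was among the highest members in GFP against control siRNA. The next 2 windows hold the NRF1 letters, and the last 5 hold the YY1 letters. Of these, MRPL51 and MRPS24 are among the 5 most expressed members, MRPS18A and MRPS30 sit in the large subunit despite their symbols, and MRPS27 was the member whose interval lay above wild type in both mutants.
MRPL47, chr3:179604659-179604688, minus strand: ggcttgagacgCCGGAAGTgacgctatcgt
MRPL27, chr17:50373174-50373203, minus strand: acttttcgagaCCGGAAGTgagtgatcgaa
MRPL20, chr1:1407319-1407348, minus strand: cgaccttcgccCCGGAAGTatcgcaggggc
MRPS34, chr16:1773136-1773165, minus strand, reverse complement of the letters: ctcttccggtgACTTCCGGccggaccgctg
MRPL32, chr7:42932326-42932355, plus strand: tctgtgcctgtGCGCATGCtgaaagcaggg
MRPS18C, chr4:83455911-83455940, plus strand: agaaaggtgctGCGCATGCgtattgaaaaa
MRPL51, chr12:6493223-6493252, minus strand: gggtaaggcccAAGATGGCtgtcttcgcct
MRPS24, chr7:43869480-43869509, minus strand: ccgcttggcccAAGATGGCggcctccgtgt
MRPS18A, chr6:43687764-43687793, minus strand: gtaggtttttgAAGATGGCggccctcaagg
MRPS30, chr5:44808949-44808978, plus strand: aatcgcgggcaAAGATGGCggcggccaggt
MRPS27, chr5:72320206-72320235, minus strand: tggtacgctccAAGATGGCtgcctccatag

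Differences between libraries are given as log2 ratios of RPKM + 1, each with a 95% counting interval from the reads behind it. A gene was compared if at least 1 of the 2 libraries had 1 RPKM and 10 reads, and all 76 members were compared in all 7 comparisons. No member reached a 2-fold difference in any of them. That share of 0 compares with 0.11% of all genes for DDX3X siRNA against control siRNA, 0.248% for wild type against GFP, 0.372% for T275M against GFP, 0.305% for G302V against GFP, 0.0771% for T275M against wild type, 0.185% for G302V against wild type and 0.503% for GFP against control siRNA. A 1.5-fold threshold also gave 0 members in each, against 2.0%, 2.21%, 2.64%, 1.77%, 0.347%, 1.76% and 2.33% of all genes in the same order. The results below therefore concern small differences, of which the counting interval gives the precision but not the spread between cultures.

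**Figure D2:**
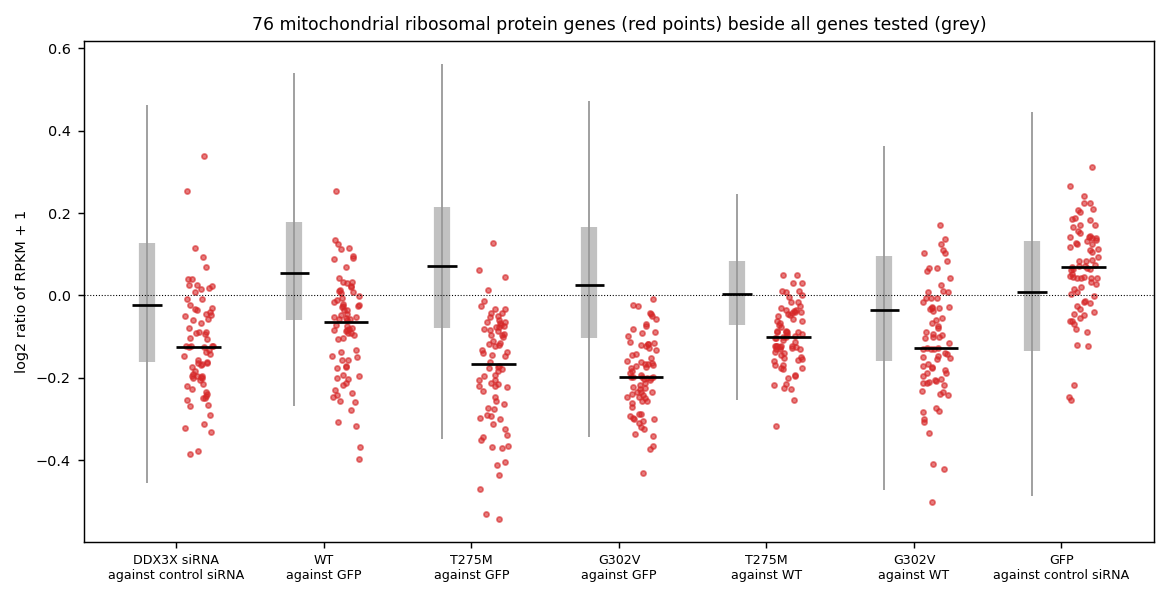
Log2 ratio of RPKM + 1 in the 7 comparisons, with 1 red point per mitochondrial ribosomal protein gene and a black line at their median. The grey bars hold the middle 50% of all genes tested, the grey lines the middle 95%, and the black line on each bar the median of all genes. The members' median lies below that of all genes in 6 comparisons and above it for GFP against control siRNA.

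To ask what depletion of DDX3X did to these transcripts, the DDX3X siRNA library was set against control siRNA. The members were lower as a group: their median log2 ratio was -0.125, against -0.024 for all 12694 genes tested, and 60 of 76 lay below the median of all genes. The interval lay wholly below 0 for 56 members, or 73.7%, and wholly above 0 for 6. Over all genes, 40.1% were below and 32.8% above by the same criterion. Since this criterion follows read number, the 5234 genes in the members' range of level are the closer reference, of which 47.7% were below, with a median of -0.041.

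The lowest ratios were in genes of the large subunit. MRPL47, a homologue of bacterial L29 next to the exit tunnel, stood at 53.4 RPKM with control siRNA and 40.6 with DDX3X siRNA, a log2 ratio of -0.38 (interval -0.44 to -0.33). MRPL27, which reaches towards the peptidyl transferase centre, stood at 71.5 and 54.8 RPKM, a log2 ratio of -0.38 (-0.44 to -0.32). MRPL10, which anchors the stalk of MRPL12, stood at 29.5 and 23.2 RPKM, a log2 ratio of -0.33 (-0.39 to -0.27).
In all 3 genes the DDX3X siRNA library was also the lowest of the 6. MRPL47 lies at chr3:179306073-179322437 on GRCh37, where its exons overlap ACTL6A on the other strand, and reads of the pair cannot be told apart without strand. MRPL27 at chr17:48445218-48450568 and MRPL10 at chr17:45900638-45908907 share no exon with another coding gene.

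Some members went the other way. MRPL41, a mitochondria-specific protein of the large subunit encoded at chr9:140446331-140447007, stood at 80.7 RPKM with control siRNA and 102.4 with DDX3X siRNA, which is 127% of the control and a log2 ratio of 0.34 (0.28 to 0.40). MRPL32, a homologue of bacterial L32 that is trimmed by the m-AAA protease before it joins the ribosome, stood at 55.7 and 66.6 RPKM, a log2 ratio of 0.25 (0.20 to 0.31). MRPL19 stood at 14.8 and 16.1 RPKM, a log2 ratio of 0.11 (0.08 to 0.15). For these 3 genes the DDX3X siRNA library was the highest of the 6, as it also was for MRPL33, MRPL35 and MRPS25. MRPS12, MRPS16 and MRPS30 were the other members with an interval above 0.

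By place in the ribosome, the lower values were spread over both subunits. The median was -0.142 for the large subunit, with 38 of 49 intervals below 0, and -0.113 for the small subunit, with 17 of 26. All 7 proteins of the central protuberance, where the large subunit faces the small one, had an interval below 0, as had 7 of 8 around the exit tunnel and 4 of 4 of the stalks. Bacterial homologues and mitochondria-specific proteins of the large subunit differed little, with medians of -0.159 over 30 genes and -0.133 over 19 genes. The mitochondria-specific group as listed includes MRPS18A, which is described below as a version of a bacterial protein.

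Transcript length moved with this difference, and base composition did so little. Over all genes, r between log2 ratio and GC content was 0.041 here. The members are short, with a median row length of 1160 bases against 2643.5 for expressed genes, and short genes of all kinds were lower in this comparison. The 1805 genes between 890.5 and 1596 bases, the quartiles of the members' lengths, had a median log2 ratio of -0.110, against -0.142 for the 38 members of that length and -0.001 for longer genes. Among the 76 members themselves, r with log length was -0.009 here, whereas it was higher in the mutant libraries described below. After a fit on length and GC content over all genes was removed, the members' median was -0.022, their distance from all genes was -0.018 rather than -0.101, and 40 of 76 lay below the median of all genes. Under median-ratio scaling of the libraries, 49 rather than 63 of 76 members were lower with DDX3X siRNA, with a median of -0.046.

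**Figure D3:**
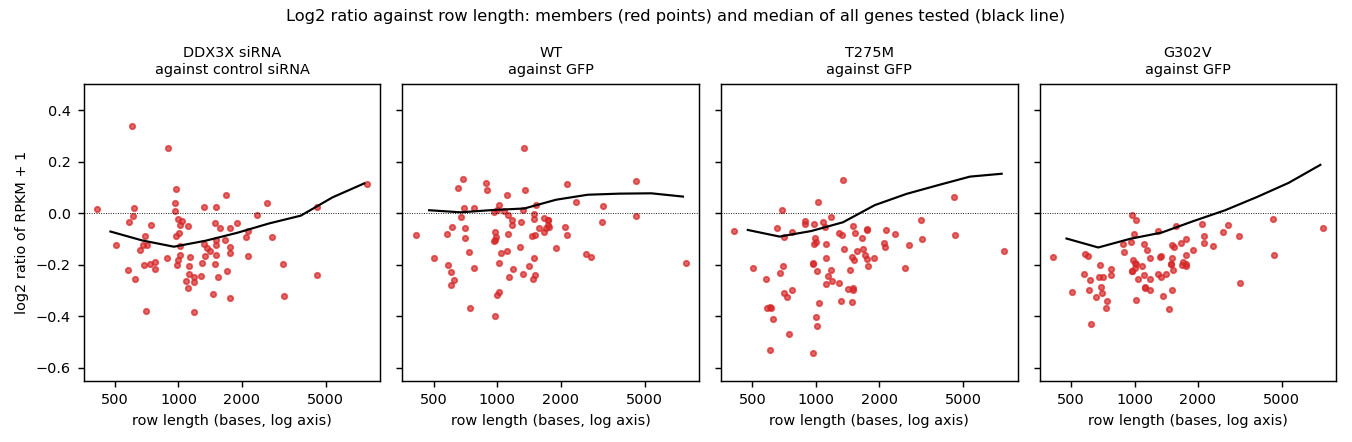
Log2 ratio of RPKM + 1 against the length of the transcript row in bases on a log axis, for DDX3X siRNA against control siRNA and for the 3 GFP-DDX3X libraries against GFP. Red points are the 76 members and the black line joins medians of all genes tested in bins of length. In the first panel the members scatter around the line, which is at -0.110 for genes of 890.5 to 1596 bases. In the T275M and G302V panels most members lie below it.

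Overexpression of wild-type DDX3X was compared with GFP alone, the control of the plasmid arm. The members were lower by a small amount: their median log2 ratio was -0.066, against 0.055 for all 12915 genes and -0.012 for genes in their range of level, and 67 of 76 lay below the median of all genes. Intervals lay below 0 for 38 of 76 members, against 21.3% of all genes and 36.4% of genes in the members' range of level, and above 0 for 9 members, against 41.1% of all genes. Under median-ratio scaling 71 rather than 57 of 76 members were below GFP.

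MRPS12, a homologue of bacterial S12 in the decoding centre, was the lowest, at 59.0 RPKM with GFP and 44.5 with wild type, a log2 ratio of -0.40 (-0.47 to -0.32). MRPL23, of the exit tunnel, stood at 147.8 and 114.3 RPKM, a log2 ratio of -0.37 (-0.42 to -0.31). MRPS34, a mitochondria-specific protein of the small subunit, stood at 151.1 and 121.2 RPKM, a log2 ratio of -0.32 (-0.36 to -0.27). Exons of MRPS34 at chr16:1821891-1823151 overlap EME2 on the other strand, whereas MRPS12 at chr19:39421584-39423808 and MRPL23 at chr11:1968508-2005752 overlap no other coding exon.
Above GFP stood MRPS31, a mitochondria-specific protein of the small subunit, at 25.2 and 30.3 RPKM, a log2 ratio of 0.25 (0.17 to 0.34). MRPS33 stood at 66.3 and 72.8 RPKM, a log2 ratio of 0.13 (0.06 to 0.21). MRPL30 stood at 19.6 and 21.4 RPKM, a log2 ratio of 0.12 (0.07 to 0.18). MRPS31 has 4 named pseudogene copies and MRPS33 has 3, and how reads were divided among such copies is not stated. MRPL1, MRPL13, MRPL24, MRPL32, MRPL53 and MRPS14 were the other members with an interval above 0.

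With the T275M mutant, nearly the whole family was below GFP. The median log2 ratio was -0.166, against 0.070 for all 12912 genes and -0.026 for genes in the members' range of level, and 75 of 76 members lay below the median of all genes. Intervals lay below 0 for 56 members, or 73.7%, against 23.4% of all genes and 40.9% of genes in the members' range of level. They lay above 0 for 2 members, MRPS31 and MRPL30, against 44.2% of all genes.

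MRPS12 and MRPL41 had the lowest single ratios of the 7 comparisons here. MRPS12 stood at 59.0 RPKM with GFP and 40.2 with T275M, which is 68.1% of GFP and a log2 ratio of -0.54 (-0.62 to -0.46). MRPL41 stood at 88.8 and 61.1 RPKM, or 68.9% of GFP, a log2 ratio of -0.53 (-0.62 to -0.45). MRPL23 stood at 147.8 and 106.5 RPKM, a log2 ratio of -0.47 (-0.53 to -0.41).
MRPL12 of the stalk was also low, at 224.4 and 165.5 RPKM, a log2 ratio of -0.44 (-0.48 to -0.40). MRPL41 was thus the member with the lowest large-subunit ratio here and the highest ratio with DDX3X siRNA. At the other end, MRPS31 stood at 25.2 and 27.7 RPKM, a log2 ratio of 0.13 (0.04 to 0.22), MRPL30 at 0.06 (0.00 to 0.12), and MRPL50 at 0.04 (-0.05 to 0.14).

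The medians of the subunits lay side by side, at -0.147 for the large and -0.174 for the small subunit. Within the small subunit, bacterial homologues had a median of -0.214 over 16 genes and mitochondria-specific proteins -0.122 over 10. The latter list includes MRPS18B, which is described below as a version of a bacterial protein. Around the exit tunnel the median was -0.091, with 5 of 8 intervals below 0, and at the central protuberance -0.119, with 6 of 7.

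For T275M and wild type against GFP, the size of the difference went with the base composition of the transcript. Across the 76 members, Pearson's r between log2 ratio and GC content was -0.687 (Spearman's rho -0.640) for T275M against GFP and -0.589 (rho -0.562) for wild type against GFP, but -0.182 (rho -0.179) for G302V and 0.195 (rho 0.179) for DDX3X siRNA. The points share the 2 libraries of each comparison, and over all genes r with GC content was -0.237, -0.170, -0.053 and 0.041. GFP against control siRNA, described below, sloped the other way. There r was 0.392 over the members (rho 0.458) and 0.308 over all genes. The part of the shared GFP library in these slopes was not tested. Row length also went with the members' ratios, shorter members being lower. Their r with log length was 0.347 for T275M, 0.162 for wild type and 0.484 for G302V. With T275M, the 25 members of lowest GC, 34.1 to 44.6%, had a median of -0.093, the middle 25 a median of -0.161 and the 26 of highest GC, 53.8 to 66.7%, a median of -0.299. The genes of all kinds with the same GC contents had medians of 0.137, 0.061 and -0.007. MRPS12 has 59.6% GC, MRPL41 66.7% and MRPL23 62.1%, whereas MRPS31 has 40.2%, MRPL30 41.5% and MRPL50 35.01%. After the fit on length and GC content was removed, the median was -0.210 for T275M and -0.145 for wild type, at distances of -0.188 and -0.122 from the median of all genes, against -0.236 and -0.120 without the fit.

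**Figure D4:**
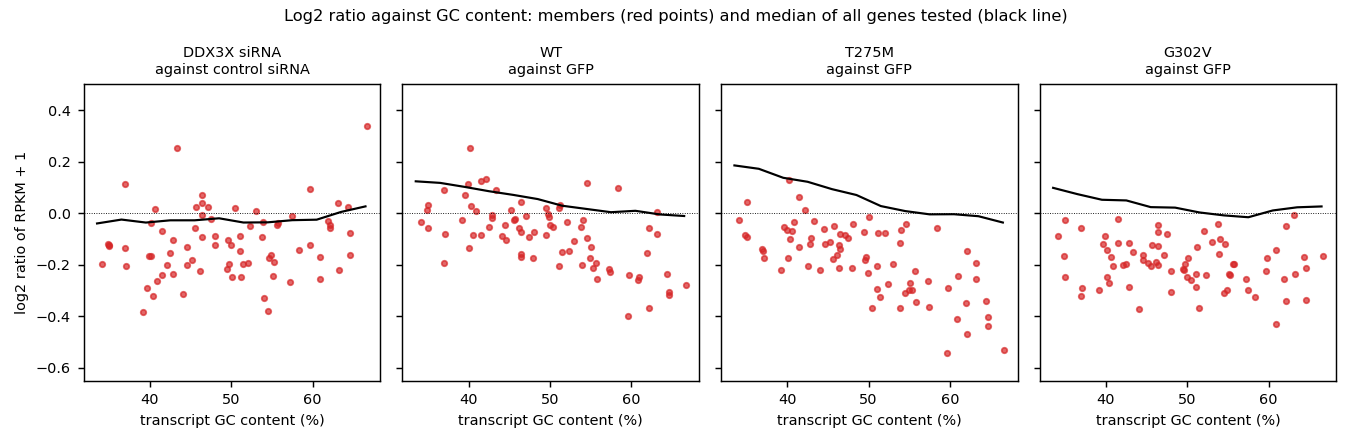
Log2 ratio of RPKM + 1 against the GC content of the transcript in percent, for DDX3X siRNA against control siRNA and for the 3 GFP-DDX3X libraries against GFP. Red points are the 76 members and the black line joins medians of all genes tested in bins of GC content. In the wild-type and T275M panels the members slope down with GC content more steeply than the line, with r of -0.589 and -0.687, and in the G302V panel they lie below it with little slope.

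In the G302V library every member was lower than in GFP. All 76 members were below GFP and below the median of all genes, with a median log2 ratio of -0.198 against 0.025 for all 12775 genes and -0.048 for genes in their range of level. Intervals lay below 0 for 69 members, or 90.8%, against 26.3% of all genes and 45.0% of genes in the members' range of level, and above 0 for none, against 35.1% of all genes. The SD over members was 0.091, against 0.138, 0.125 and 0.130 for T275M, wild type and DDX3X siRNA against their controls, and 0.074 for T275M against wild type. The 7 members whose interval included 0 were MRPL30, MRPL34, MRPL38, MRPL49, MRPL50, MRPS6 and MRPS27.

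MRPL54, a mitochondria-specific protein of the large subunit, was lowest, at 56.4 RPKM with GFP and 41.6 with G302V, a log2 ratio of -0.43 (-0.54 to -0.33). MRPS9, a homologue of bacterial S9, stood at 57.8 and 44.4 RPKM, a log2 ratio of -0.37 (-0.44 to -0.31). MRPL20 stood at 186.7 and 144.6 RPKM, a log2 ratio of -0.37 (-0.42 to -0.31). None of these 3 genes shares an exon with another coding gene.
Closest to GFP were MRPL34, a homologue of bacterial L34, at 46.2 and 45.9 RPKM, a log2 ratio of -0.01 (-0.09 to 0.08), MRPL30 at -0.02 (-0.08 to 0.04) and MRPL50 at -0.03 (-0.13 to 0.07). Genes of the members' length were also lower here, with a median of -0.078 against 0.058 for longer genes, and the median of the 38 members of that length was -0.199. Within the family, r was 0.484 with log length and -0.182 with GC content. With the length and GC fit removed the members' median was -0.139, their distance from all genes was -0.123 rather than -0.224, and 72 of 76 were below GFP.

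The 3 comparisons with GFP share the GFP library, and GFP itself stood above the other control. In GFP against control siRNA, the members' median log2 ratio was 0.069, against 0.009 for all 12730 genes. For genes in the members' range of level the median was 0.040. Removing the length and GC fit left a members' median of 0.035, and their distance from all genes was 0.021 rather than 0.059. The 26 members of highest GC had a median of 0.125, against 0.097 for genes of all kinds with the same GC contents. For the 25 of lowest GC it was 0.007 against -0.067, and for the middle 25 it was 0.073 against -0.009. Intervals lay above 0 for 41 members, or 53.9%, against 33.2% of all genes and 44.6% of genes in the members' range of level. They lay below 0 for 8, against 31.3% and 29.15%. The highest were MRPS30 at 0.31 (0.24 to 0.38), MRPL18 at 0.27 (0.22 to 0.32) and MRPS6 at 0.24 (0.15 to 0.34). The lowest were MRPL11, at the base of the stalk, at -0.25 (-0.31 to -0.20), MRPL24 at -0.25 (-0.30 to -0.19) and MRPS14 at -0.22 (-0.29 to -0.14). The transfection, the time in culture and the sort differ between these control libraries and cannot be told apart.

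**Figure D5:**
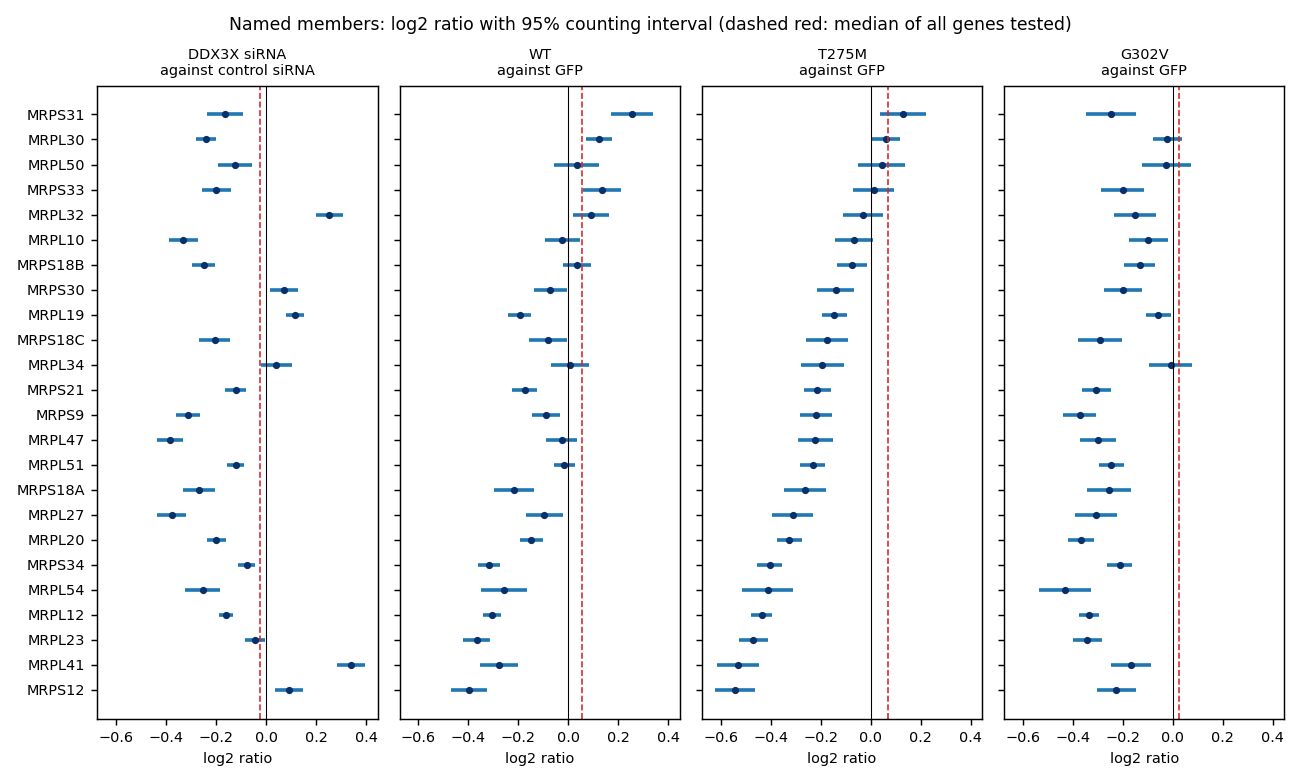
Log2 ratio with its 95% counting interval for 24 named members, in DDX3X siRNA against control siRNA and in the 3 GFP-DDX3X libraries against GFP. The solid line marks 0 and the dashed red line the median of all genes tested. MRPS12 and MRPL41 are lowest with T275M and above 0 with DDX3X siRNA, and no member is above 0 with G302V.

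The mutants were next set against wild type, a comparison that does not use the GFP library. T275M was below wild type for most of the family, with a median log2 ratio of -0.101 against 0.005 for all 12973 genes, and 69 of 76 members lay below the median of all genes. Intervals lay below 0 for 53 members, or 69.7%, against 20.5% of all genes and 32.2% of genes in the members' range of level, and above 0 for MRPS27 alone, against 24.0%. MRPL36, a homologue of bacterial L36, was the lowest at 51.8 RPKM with wild type and 41.4 with T275M, a log2 ratio of -0.32 (-0.42 to -0.21). MRPL41 followed at -0.25 (-0.34 to -0.17), and MRPL1, which forms the stalk at the tRNA exit site, at -0.23 (-0.31 to -0.15).
MRPL19, MRPS27 and MRPL18 were the highest, at 0.05 (-0.00 to 0.10), 0.05 (0.00 to 0.10) and 0.03 (-0.02 to 0.08). Across the members, r was 0.371 with log length and -0.282 with GC content. With the length and GC fit removed, the members' median was -0.061 and 59 of 76 lay below the median of all genes.

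G302V was also below wild type, with a median of -0.127 against -0.034 for all 12967 genes, but 52 of 76 members lay below the median of all genes. Intervals lay below 0 for 48 members, or 63.2%, against 35.8% of all genes and 43.5% of genes in the members' range of level, and above 0 for 10 members, against 26.2%. MRPS31 was lowest at 30.3 RPKM with wild type and 21.1 with G302V, a log2 ratio of -0.50 (-0.60 to -0.41), followed by MRPL53 at -0.42 (-0.52 to -0.32) and MRPL1 at -0.41 (-0.49 to -0.32). MRPS12 was highest at 44.5 and 50.2 RPKM, a log2 ratio of 0.17 (0.09 to 0.25), followed by MRPL19 at 0.14 (0.09 to 0.19) and MRPS27 at 0.13 (0.08 to 0.17).
This comparison did not hold after the length and GC fit was removed: the members' median became 0.006, the distance from all genes -0.0005, and 38 of 76 lay below the median of all genes. Genes of the members' length had a median of -0.094, against -0.100 for the 38 members of that length. Across all members, r was 0.176 with log length and 0.422 with GC content. Under median-ratio scaling 50 rather than 61 of 76 members were below wild type.

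Set side by side, 46 of 76 members were below their reference in the knockdown and in all 3 DDX3X plasmid libraries, and none was above in all 4. That is 60.5%, against 15.4% of all genes and 24.1% of genes in the members' range of level. The plasmid comparisons share the GFP library, so these counts do not come from 4 separate controls. They were also not set beside genes of the members' length. With the length and GC fit removed, 42 of 76 members were lower in the knockdown, at a distance of -0.018 from all genes. The joint counts were not recomputed after that fit. For 23 members the interval was below 0 in all 4, which is 30.3%, against 7.04% of all genes and 12.3% of genes in that range. They include MRPL12, MRPL20, MRPL23, MRPL27, MRPL54, MRPS9, MRPS21 and MRPS34. The other 15 were MRPL2, MRPL3, MRPL11, MRPL14, MRPL28, MRPL37, MRPL48, MRPL52, MRPL55, MRPS2, MRPS7, MRPS10, MRPS11, MRPS18A and MRPS18C. For 14 members the interval was above 0 in at least 1 of the 4, and each of these was below 0 in another. The share of 18.4% compares with 67.5% of all genes and 60.5% of genes in that range.

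The paralogues MRPS18A, MRPS18B and MRPS18C encode versions of one bacterial protein that sit at different places, MRPS18A in the large subunit and the others in the small one. MRPS18A stood at 38.8 RPKM in GFP, 33.2 in wild type, 32.2 in T275M, 32.3 in G302V, 34.4 in control siRNA and 28.4 in DDX3X siRNA. MRPS18B stood at 56.9, 58.2, 53.9, 51.8, 51.6 and 43.2 RPKM, and MRPS18C at 41.5, 39.2, 36.7, 33.7, 38.3 and 33.1 RPKM. All 3 were lowest with DDX3X siRNA, and their log2 ratios against control siRNA were -0.27, -0.25 and -0.21. They differed in the wild-type library, where MRPS18A was at -0.22 (-0.30 to -0.14) against GFP and MRPS18B at 0.03 (-0.02 to 0.09). MRPS30, whose symbol names the small subunit although its protein sits in the large one, stood at 34.7, 32.98, 31.4, 30.1, 27.8 and 29.2 RPKM, and was highest with GFP and lowest with control siRNA.

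Proteins of the same ribosome that carry no MRPL or MRPS symbol were read as a further group of 7 genes. Their median log2 ratio was -0.122 after knockdown, and against GFP it was -0.099 in wild type, -0.247 in T275M and -0.226 in G302V. Intervals below 0 numbered 5, 5, 5 and 7 of 7. AURKAIP1, a small subunit protein, stood at 154 RPKM in GFP, 134 in wild type, 117 in T275M, 127 in G302V, 146 in control siRNA and 133 in DDX3X siRNA. GADD45GIP1, of the large subunit, stood at 117, 102, 88.0, 92.9, 115 and 101 RPKM. Both were highest with GFP and lowest with T275M.
DAP3, a GTP-binding protein of the small subunit, ran from 70.9 to 79.8 RPKM. PTCD3, a pentatricopeptide repeat protein, ran from 21.9 to 24.1 RPKM and was the single gene of the 7 above control siRNA by its interval. CHCHD1, ICT1 and MRP63 ran from 37.0 to 44.5, 31.8 to 42.9 and 13.7 to 16.96 RPKM, each lowest in a mutant or in the DDX3X siRNA library.

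Genes that work with the mitochondrial ribosome were read from lists of the same pathway. Values are given in the order knockdown, wild type, T275M and G302V, each against its own control. The shares of intervals below 0 over all genes were 40.1%, 21.3%, 23.4% and 26.3% in that order, and 47.7%, 36.4%, 40.9% and 45.0% for genes in the mitochondrial ribosomal genes' range of level. Assembly factors, which modify the ribosomal RNA and build the particle, had medians of -0.084, -0.044, -0.075 and -0.131 over 25 genes, with 14, 11, 13 and 20 intervals below 0 and 2, 8, 4 and 2 above. Among those at 10 RPKM or more, NGRN was lowest after knockdown at -0.40, MPV17L2 in wild type at -0.30, RPUSD4 in T275M at -0.30 and ERAL1 in G302V at -0.24. The highest were RPUSD4 at 0.06 after knockdown and TFB1M, an rRNA methyltransferase, at 0.24, 0.22 and 0.09 in the plasmid libraries.
Mitochondrial translation factors and mRNA-binding proteins lay closer to 0, with medians of -0.055, 0.010, -0.013 and -0.109 over 16 genes. Intervals below 0 numbered 6, 5, 5 and 13, or 37.5%, 31.2%, 31.2% and 81.25%. At 10 RPKM or more, the lowest of these factors were the initiation factor MTIF2 at -0.22, the elongation factor TUFM at -0.20, and SLIRP at -0.31 and -0.35. MTRF1, below that level, was lower than MTIF2 after knockdown, at -0.31. The highest of these factors were the elongation factor GFM1 at 0.18 after knockdown and C12orf65 at 0.23, 0.18 and 0.15.
Regulators of mitochondrial biogenesis had medians of -0.039, 0.017, -0.014 and -0.061 over 18 or 19 genes, with 7, 6, 5 and 10 intervals below 0 and 6, 5, 6 and 4 above. The shares below 0, at 38.9%, 31.6%, 26.3% and 55.6%, were near those of all genes or of genes in that range of level. The lowest were SSBP1 at -0.31 and -0.40 after knockdown and in G302V, TOP1MT at -0.21 in wild type and MYC at -0.22 in T275M. At 10 RPKM or more, the highest were ESRRA at 0.41 after knockdown, GABPB1 at 0.23 in wild type, and YY1 at 0.26 and 0.28 in the mutants. Over the whole list, genes below that level were higher in the first 3 comparisons. PPARGC1B stood at 0.55 after knockdown, and PPARGC1A at 0.58 in wild type and 0.64 in T275M.

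Nuclear genes of the respiratory chain, whose complexes also hold the proteins that mitochondrial ribosomes make, had medians of -0.049, -0.056, -0.142 and -0.158 over 76 genes, with 41, 43, 63 and 67 intervals below 0, or 53.9%, 56.6%, 82.9% and 88.2%. The lowest were ATP5E at -0.27, NDUFS6 at -0.25, ATP5D at -0.45 and NDUFV3 at -0.38, and the highest NDUFA7 at 0.31, NDUFA6 at 0.10 and NDUFB5 at 0.20 and 0.08. Cytosolic ribosomal protein genes had medians of -0.072, -0.050, -0.110 and -0.095 over 80 genes, with 59, 54, 70 and 64 intervals below 0, or 73.8%, 67.5%, 87.5% and 80.0%. The lowest were RPL23A at -0.26, RPL41 at -0.27, RPS26 at -0.33 and RPL6 at -0.24, and the highest RPL41 at 0.15 and RPS27L at 0.21, 0.37 and 0.22. Some cytosolic genes stood far above the mitochondrial ribosomal genes' range of level, such as RPL41 at 1836 RPKM in GFP. Since the interval criterion follows read number, neither reference share is matched to them. For the respiratory chain in the knockdown the share is close to the 47.7% of genes in the range of level. The difference between these groups and the mitochondrial ribosomal genes was not tested.

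Members with and without the motif letters were set side by side. With T275M, the median log2 ratio was -0.146 for the 21 genes with the YY1 letters and -0.173 for the 47 without. For the 12 genes with the ETS letters it was -0.213, against -0.153 for the 56 without, and for the 6 with the NRF1 letters -0.091, against -0.172 for the 62 without. With DDX3X siRNA the same pairs were -0.123 and -0.137, -0.149 and -0.124, and -0.129 and -0.130. Wider gaps stood elsewhere: in wild type against GFP the NRF1 pair was 0.031 and -0.082, and in G302V against wild type the ETS pair was -0.182 and -0.098. The genes with the ETS letters were not lower in every comparison: in wild type against GFP that pair was -0.057 and -0.082. These medians were not tested.

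Overlapping genes and pseudogenes limit what single values mean. On GRCh37, 32 of the 76 members share exon sequence with another coding gene, 20 of them on the other strand and 13 on the same strand, and 35 have 74 named pseudogene copies, with up to 8 for MRPS21. The counting is not stated to use strand. The 44 members without exon overlap had a median of -0.135 after knockdown and, against GFP, of -0.057 in wild type, -0.166 in T275M and -0.2003 in G302V. The 41 members without a named copy had -0.122, -0.083, -0.194 and -0.199. For the 24 members with several transcript rows, the rows of 1 gene differed by at most 0.054 in log2 ratio.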

How the data were processed

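RNA from HEK293T cells was read as TruSeq libraries by Illumina sequencing, with 1 library for each of 6 groups. Per the study's methods and the labels, the authors trimmed adapters with cutadapt, dropped reads under 21 bases, aligned with BWA 0.5.5 to human genome build 37 with RefSeq and AceView transcripts and exon junctions, removed duplicates, and divided reads per transcript by its length and the library total. These are the RPKM values deposited by the authors, 1 row per accession. Strand use is not stated.

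Whole reads were recovered from the steps in the values, and 100.0% of the rows checked came out whole within 0.1 read. No count test was run, since a group holds 1 library. Ratios are log2(RPKM + 1), which understates differences of low genes, with Clopper-Pearson 95% intervals from the reads. Genes needed 1 RPKM and 10 reads in either library. Precision follows depth, which ran from 43720000 to 180870000 reads. Positions came from GENCODE 44 on GRCh37 and promoters from RefSeq on GRCh38.p14. The scripts used Python 3.11.15, numpy 2.4.6, pandas 2.3.3 and scipy 1.17.1 and were tested on simulated data.

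The members and gene lists were chosen with earlier results of these data known. Named were DDX3X, the 5 highest and 5 lowest members by mean, the 3 highest and 3 lowest ratios per comparison at 10 RPKM or more, the MRPS18 paralogues, MRPS30, the 7 proteins without an MRP symbol, and the extremes of each other pathway list, given here for the 4 comparisons with a control. Further names complete counts and were chosen after their values were seen. Alternatives were other pseudocounts, filters, scalings and rows per gene, and a fit on length and GC content.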

Additional observations from a re-analysis of the deposited data

How the results depend on the processing

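Each of the 7 medians was recomputed under 11 alternatives, 77 in all. Of these, 76 kept the sign and 49 moved by no more than the counting error of the members' pooled reads. That error is not an interval of the median. The distance from the median of all genes kept its sign in 77 of 77, but with the length and GC fit removed it was -0.0005 for G302V against wild type, -0.0183 rather than -0.1011 for DDX3X siRNA and -0.1233 rather than -0.2235 for G302V against GFP. At a minimum of 10 RPKM it was -0.0675 rather than -0.1203 for wild type. The summed level also depended on the rows taken, at 5795.4 rather than 3589.6 RPKM for the large subunit in GFP with all rows added. In these alternatives 0 members passed 2-fold. In the order DDX3X siRNA, wild type, T275M and G302V against their controls, T275M and G302V against wild type, and GFP against control siRNA, a pseudocount of 10 gave -0.1072, -0.0543, -0.1379, -0.1696, -0.0847, -0.1014 and 0.0591. Removing the length and GC fit gave -0.0223, -0.145, -0.2101, -0.139, -0.0605, 0.0063 and 0.0352, so that G302V against wild type changed sign. Median-ratio scaling gave -0.046, -0.1663, -0.2623, -0.2402, -0.0678 for G302V against wild type and 0.0816 for GFP against control siRNA. Chosen after seeing the data, the members with no exon overlap gave -0.1349 for DDX3X siRNA, -0.0565 for wild type, -0.1153 and -0.1371 for T275M and G302V against wild type and 0.0584 for GFP against control siRNA. Those with no named pseudogene copy, also chosen after seeing the data, gave -0.0829 in wild type and -0.1935 in T275M against GFP, and -0.1153 in G302V against wild type. The cause of these shifts was not tested. No paired analysis was possible because each group holds 1 library, and for the same reason no library could be left out. Intervals cover counting error only.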
